A study of Mus musculus with 8 samples.

Results

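The comparison described here sets airway epithelial cells of STAT3-cKO mice against those of STAT3-WT mice when both had received PBS, the saline control, in place of house dust mite (HDM) allergen. It uses 4 of the 8 libraries of the study, 2 per genotype, chosen by their labels. Of the 25124 genes in the table, 7512 averaged 10 or more normalized counts across all 8 libraries and were tested. The cells came from C57BL/6 lungs by flow cytometric sorting, and total RNA was sequenced. The groups are STAT3-WT with PBS (WT PBS), STAT3-cKO with PBS (cKO PBS) and, used only to estimate the spread between libraries and for a short comparison at the end, both genotypes with HDM (WT HDM and cKO HDM). The label cKO stands for a conditional knockout of STAT3. The promoter that drives the deletion, the cells it reaches, the exons removed, the controls' own alleles, the age of the mice and the number of mice per library were not stated in the labels used here. A normalized count is a read count after scaling by the authors, so that libraries of different depth can be set side by side.

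STAT3 is a transcription factor that sits idle in the cytoplasm until a cytokine receptor calls on it. Cytokines of the IL-6 family bind receptors that share the chain encoded by Il6st (gp130), Janus kinases at the receptor phosphorylate STAT3, and the STAT3 dimer enters the nucleus and activates genes of the acute-phase response, of survival and of its own feedback, such as Socs3. In lung epithelium STAT3 is known for roles in repair, in secretory and ciliated cell fate and in surfactant homeostasis. Without an inflammatory stimulus its activity is usually low.

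STAT dimers bind a palindrome, written TTCNNNGAA, which reads the same on both strands. It was searched in RefSeq promoters of build GRCm38.p6 (mm10), from 250 bases before to 50 bases after each gene's start. Of the 33 genes on a list of 38 STAT3 targets that had a promoter in that table, 5 held the motif (15.2%), against 455 of 5965 tested genes (7.63%). Counted per promoter, these were 5 of 39 (12.8%), against 479 of 7775 promoters of tested genes (6.16%) and 2726 of all 32851 promoters (8.30%). The 33 genes include some that were not tested, such as Steap4. The windows around those 5 matches are printed because they are the places in this gene group where a STAT dimer could bind near the start. Capitals mark the motif.

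Icam1: ggcgcgaggtTTCCCGGAAagtggccccg
Irf1: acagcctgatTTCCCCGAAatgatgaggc
Socs3: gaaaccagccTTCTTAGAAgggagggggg
Steap4: ggttgaactcTTCCCGGAAactttgcttc
Tnfrsf1a: gcttccTTCCGTGAAattgacaaca

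The windows lie at chr9:21015888-21015916 on the plus strand for Icam1, an adhesion molecule, with the motif 42 bases before the start, and at chr11:53769914-53769942 on the plus strand for Irf1, an interferon regulatory factor, 90 bases before. That of Socs3, the feedback inhibitor, is at chr11:117969502-117969530 on the minus strand, 154 bases before the start. Those of Steap4, a metalloreductase, and Tnfrsf1a, a TNF receptor, are at chr5:7960346-7960374 and chr6:125349473-125349497, both on the plus strand, 116 and 244 bases before. A match is a run of letters and not a measured binding site.

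The 4 PBS libraries were shallow. The WT PBS libraries held 480163 and 411098 reads and the cKO PBS libraries 232556 and 298311, so that both cKO libraries were shallower than both WT libraries, and 9209 to 11754 genes had a read. A count of 0 allows up to 3 reads, which is 2.30 and 2.73 normalized counts in the WT PBS libraries and 4.88 and 3.81 in those of cKO PBS. This floor covers counting error only. A fold given below as "at least" is the mean of 1 genotype over the other's floor. It leaves out the error of that mean and the spread between libraries, so it is no lower bound on a genotype difference. Across the 7512 genes the WT PBS libraries correlated at r = 0.77 and the cKO PBS libraries at 0.56. Each cKO PBS library correlated better with both WT PBS libraries (0.61 to 0.69) than with the other cKO PBS library. Genes share their library, so these correlations describe the libraries and carry no test. Counts of the 2 libraries of a genotype differed by more than sampling noise (chi-square over its degrees of freedom was 4.94 for WT PBS and 6.31 for cKO PBS). The labels do not state that the 2 libraries were of different mice, so a p-value here measures only library-to-library spread, possibly technical.

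Stat3 itself did not separate the genotypes. It stood at 75.8 and 40.9 normalized counts in the WT PBS libraries and at 56.9 and 96.5 in those labelled cKO. The groups overlapped, and the log2 difference, cKO minus WT, was 0.41 ± 0.39 (SE, n = 2 per group), with a limma adjusted p of 0.845 after Benjamini-Hochberg adjustment. The value is a total over all exons, and since the removed exons are not given, it can neither bear out nor contradict the genotype. Every direction below therefore rests on the labels, and "cKO" means the libraries labelled STAT3-cKO.

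Upstream of STAT3, transcripts of the receptors and kinases were present in both genotypes, and none passed. Il6st stood at 186 and 136 normalized counts in WT PBS and at 159 and 128 in cKO PBS, and Il6ra, the IL-6 receptor chain, at 23.7 and 13.6 against 19.5 and 21.6. Both pairs overlapped, with log2 differences of -0.15 ± 0.28 and 0.18 ± 0.62. Il6, the cytokine, had 0 reads in all 8 libraries. Among 8 tested receptors, those of the family and its relatives with Egfr added, 3 were higher and 5 lower in cKO, and 0 passed. Both cKO libraries lay above both WT libraries in 2 of the 8, Ifnlr1 and Egfr (15.7% of all genes did), and below in 1, Lifr (19.1%). The one with the smallest p was Ifnlr1, the interferon lambda receptor chain, at 7.7 and 8.2 against 40.7 and 21.6 (1.78 ± 0.84). Lifr, the leukemia inhibitory factor receptor, stood at 18.4 and 19.1 against 8.1 and 10.2 (-0.97 ± 0.75). Egfr, the epidermal growth factor receptor, was at 8.4 and 8.2 against 21.1 and 21.6 (1.27 ± 0.90). In these 3 genes all 4 cKO libraries, those with HDM included, also lay on the same side of all 4 WT libraries, as in 1.78% of all genes above and 1.98% below.

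Of the kinases, Jak1 stood at -0.43 ± 0.45 and Jak2 at -0.40 ± 0.55 on the log2 scale. In 3 of the 7 tested kinases and STATs both cKO libraries lay above both WT libraries (15.7% of all genes did), among them Stat2 (0.72 ± 0.87) and Stat5b (0.90 ± 0.75), and in 1, Jak2, below (19.1%). Stat6, the IL-4 and IL-13 factor, had a difference of -0.46 ± 0.42 with overlap between the genotypes. None of the 7 tested members passed (limma with Benjamini-Hochberg adjustment).

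Among 13 tested inhibitors of the pathway, 8 were higher and 5 lower in cKO. Socs3 stood at 27.6 and 1.8 normalized counts in WT PBS and at 8.1 and 36.8 in cKO PBS. Each genotype thus had 1 high and 1 low library, and the difference of 1.05 ± 0.95 is within that spread. Ptprk, a receptor phosphatase, was at 32.9 and 50.9 against 76.5 and 77.5 (0.89 ± 0.41), a difference that did not pass. Pias3, which blocks DNA binding by STAT3, had 0 reads in both cKO libraries and 20 in both WT libraries together. Set against 3 reads per cKO library, it was at least 1.86-fold lower. Socs2 stood at 51.3 and 41.8 against 52.1 and 57.1, a difference of 0.23 ± 0.40.

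The STAT3 target list showed no common direction without allergen. Of 28 tested members, 16 were higher and 12 lower in cKO, with a median log2 difference of 0.05, against -0.09 for all genes tested. 0 passed, where the share over all genes was also 0.0%. At an unadjusted p under 0.05 stood 2 higher and 1 lower member, against 2.17% and 4.79% of all genes. The direction of the median was not stable, at -0.0028 with quantile normalization and at -0.17 without the second WT PBS library. One member, Lcn2, passed downward (-3.70) without the second cKO PBS library.

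The members with the smallest p had opposite signs. Cp, the acute-phase copper oxidase ceruloplasmin, stood at 483 and 376 normalized counts in WT PBS and at 742 and 650 in cKO PBS (0.70 ± 0.21). Tnfrsf1a, whose promoter window is printed above, stood at 30.6 and 16.4 against 63.4 and 50.8 (1.30 ± 0.48). In both genes the cKO libraries lay above the WT libraries. Lcn2, the siderophore-binding lipocalin, was at 12.2 and 11.8 against 0 and 7.6 (-2.15 ± 0.95), with 0 reads in the first cKO library. Pim1, a survival kinase, was at 3.8 and 4.5 against 13.0 and 25.4 (1.89 ± 1.13).

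Of the other targets with a printed window, Socs3 is given above and Steap4 averaged under 10 normalized counts and was not tested. Irf1 was at 35.2 and 24.6 normalized counts in WT PBS and at 29.3 and 29.2 in cKO PBS, a log2 difference of -0.01 ± 0.51. Icam1 was at 75.01 and 23.6 against 22.8 and 57.1, a difference of -0.22 ± 0.56. The genotypes overlapped in both, as they did for Socs3. Abundant targets such as Fos at -0.19 ± 0.25, Junb at 0.08 ± 0.27 and Mcl1, an anti-apoptotic factor, at 0.08 ± 0.32 had intervals on both sides of 0.

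At baseline the transcriptome was led by secretory genes of the conducting airway, joined by surfactant genes. By normalized counts the most abundant gene was Sec14l3, a lipid-binding protein of airway epithelium, at 3352 and 3982 in WT PBS against 4508 and 4146 in cKO PBS. Next came Cyp2f2, the club cell cytochrome P450, at 2955 and 2735 against 5044 and 3570, and Scgb1a1, the secretoglobin that defines club cells, at 2161 and 2026 against 4213 and 2897. Club cells are the dome-shaped secretory cells of the bronchioles. In all 3 genes both cKO libraries were above both WT libraries. The surfactant genes Sftpa1, Sftpc and Sftpb, products of alveolar type 2 cells, ranked 4, 9 and 15, and Sftpc stood at 765 and 1289 against 981 and 1209 with overlap.

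Further members of the 20 most abundant were Gsn, an actin-severing protein, Cbr2, a lung carbonyl reductase, Aldh1a1, a retinaldehyde dehydrogenase, Bpifa1, an antimicrobial secretory protein, and Scgb3a2, another secretoglobin. Genes of high general expression were also among them, such as Txnip, Eef2, Hsp90ab1 and Tmbim6, with the airway genes Hp and Cyp2s1 and the epithelial surface genes Cdh1 and Cd24a. Of the 20 most abundant genes in each genotype, 18 were shared. Together the 20 made up 6.35% (exact Clopper-Pearson 95% interval 6.28 to 6.42) and 6.82% (6.74 to 6.90) of the WT PBS libraries. They made up 8.81% (8.70 to 8.93) and 7.56% (7.47 to 7.66) of those of cKO PBS, above both WT libraries. These intervals cover counting error only, which is less than the spread between libraries. Rn45s, a ribosomal RNA precursor left out of the ranking, took 0.289% to 0.410% of reads.

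**Figure D1:**
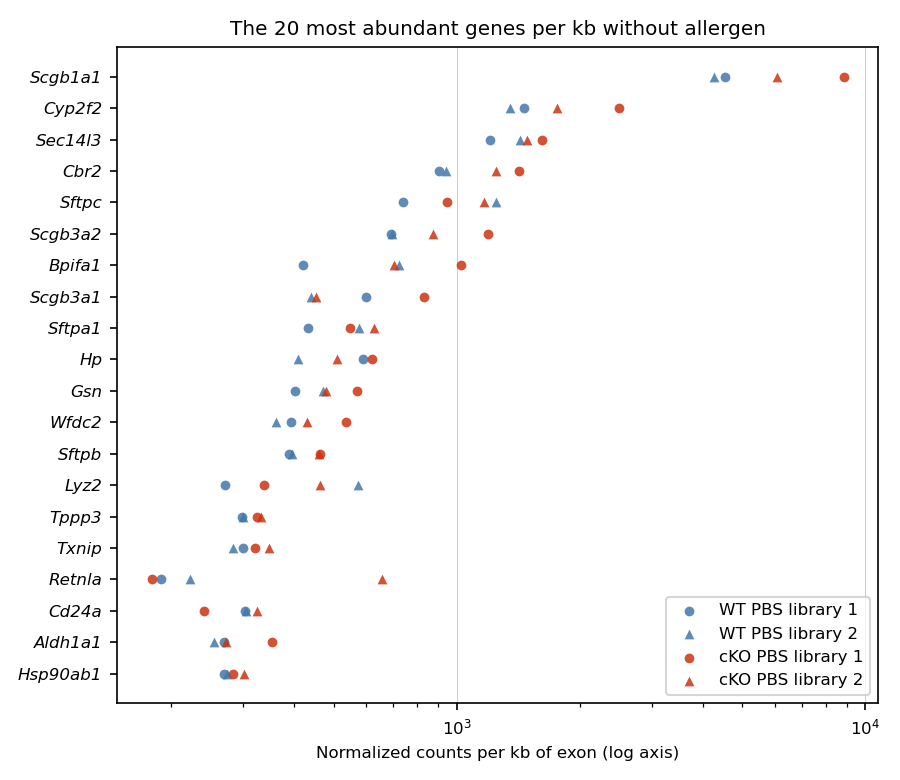
Level of the 20 most abundant genes per kb of exon in each PBS library (x axis, normalized counts per kb on a log axis; one row per gene). Circles are the first and triangles the second library of a genotype, blue for WT PBS and red for cKO PBS. Scgb1a1 lies above all others in every library, and its 2 cKO libraries lie to the right of both WT libraries.

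Levels of different genes can be compared only per length, and per kb of exon Scgb1a1 came first, followed by Cyp2f2, Sec14l3, Cbr2 and Sftpc. The plot of levels per kb shows 15 of the 20 genes ranked by counts and adds Scgb3a1, Wfdc2, an airway antiprotease, Lyz2, a lysozyme of alveolar type 2 cells and macrophages, Tppp3, a ciliated cell gene, and Retnla. Retnla, a type 2 effector, owed its rank to 1 library, since it stood at 113 and 134 normalized counts in WT PBS and 107 in the first cKO library but 394 in the second. Lyz2 differed more between the WT PBS libraries (357 and 754) than between the genotype means (555 and 527).

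Marker lists showed epithelial cells of both the airways and the alveoli. All 14 pan-epithelial genes were tested, with Epcam, the epithelial surface marker, at 123 and 179 normalized counts in WT PBS against 133 and 151 in cKO PBS. The share of reads of the 25 club cell genes was 3.66% and 3.40% in WT PBS against 5.53% and 4.09% in cKO PBS. Ciliated cell genes took 1.38% to 1.42% in the 4 PBS libraries, and alveolar type 2 genes 1.83% and 2.46% against 1.95% and 2.23%. Foxj1, the ciliated cell regulator, stood at 550 and 534 against 708 and 485 normalized counts. Endothelial genes took 0.112% to 0.126% of reads, and macrophage and dendritic cell genes 0.118% to 0.227%, most of it Lyz2. Lymphocyte genes took at most 0.0027%. Csf1r, the macrophage receptor, and Cd3e, of T cells, had 0 reads in the PBS libraries. Ptprc, the pan-leukocyte gene, had 4 reads in the second WT PBS library and 0 in the others. The basal cell markers Krt5 and Trp63 were too low to be tested. In bulk samples, fewer cells of a type and less RNA per cell cannot be told apart.

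No gene passed between the genotypes without allergen. Of 7512 genes 0 had an adjusted p under 0.05 (limma, Benjamini-Hochberg), or 0.0%, and edgeR and DESeq2 on the whole reads recovered from the table called 0 as well. At an unadjusted p under 0.05 stood 523 genes (6.96%), 163 higher and 360 lower in cKO. With quantile normalization, which gives all libraries 1 distribution, these were 211 and 247. edgeR had 410 such genes and DESeq2 401. Both cKO libraries lay above both WT libraries in 1178 genes (15.7%) and below in 1432 (19.1%). The values below are thus a description of the differences that came nearest, and none of them is a call.

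The direction of the differences moved with expression level. Among genes averaging 10 to 20 normalized counts, 29 were higher and 146 lower at an unadjusted p under 0.05, with a median log2 difference of -0.24, and 586 of 2635 had 0 reads in a cKO library. Among genes averaging 200 or more the median was 0.10, with 10 higher and 1 lower. The lower depth of both cKO libraries goes with the first of these, and its part in the result was not tested. The median absolute difference between the libraries of a genotype was 0.76 in cKO PBS and 0.48 in WT PBS.

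**Figure D2:**
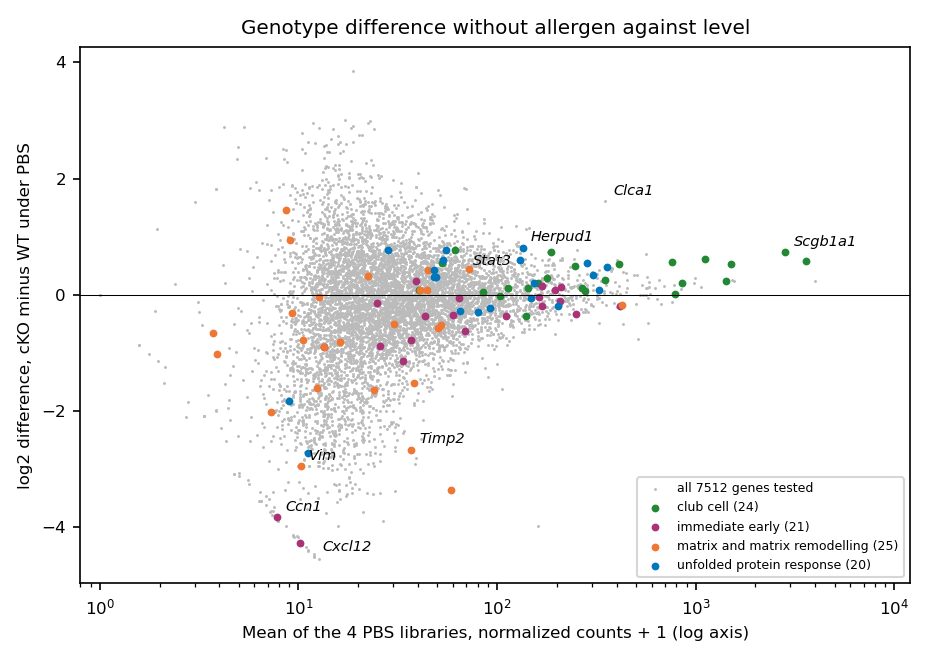
Log2 difference, cKO minus WT under PBS (y axis), against the mean of the 4 PBS libraries plus 1 (x axis, log axis) for all 7512 genes tested (grey), with 4 gene lists in colour. Club cell genes lie at the right and mostly above 0, while genes with large negative values such as Cxcl12 and Vim lie at low levels.

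Among genes higher in cKO, Bcl9l, a coactivator of Wnt signalling, had the smallest p. It stood at 95.7 and 77.3 normalized counts in WT PBS and at 195 and 187 in cKO PBS, where the libraries of each genotype were close together and apart from the other genotype. The log2 difference was 1.14 ± 0.31, with a limma adjusted p of 0.659 (Benjamini-Hochberg), a value it shares with the 11 other genes next in that order. Kcnj15, a potassium channel, was at 51.3 and 104 against 187 and 151 (1.19 ± 0.34). Creb3l1, a membrane-bound transcription factor of secretory cells, was at 10.7 and 5.5 against 35.8 and 30.5 (1.97 ± 0.60), close to the floor in WT.

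Clca1, a secreted protein of mucous cells, stood at 230 and 102 normalized counts in WT PBS and at 283 and 784 in cKO PBS. Its difference of 1.61 ± 0.46 rests mostly on the second cKO library. Without the first cKO library it was 2.35 and passed, and so did Retnla at 1.67. The other genes of this order were Mier1 (1.71 ± 0.51) and Taf15 (1.38 ± 0.41), nuclear regulators of transcription, Usp33 (1.86 ± 0.56), a deubiquitinase, E2f4 (2.06 ± 0.63), a cell cycle factor, Xpo1 (1.48 ± 0.46), the nuclear export receptor, Plod3 (2.05 ± 0.62), a collagen-modifying enzyme, Afg3l1 (1.99 ± 0.60), of mitochondrial proteolysis, and Cp.

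**Figure D3:**
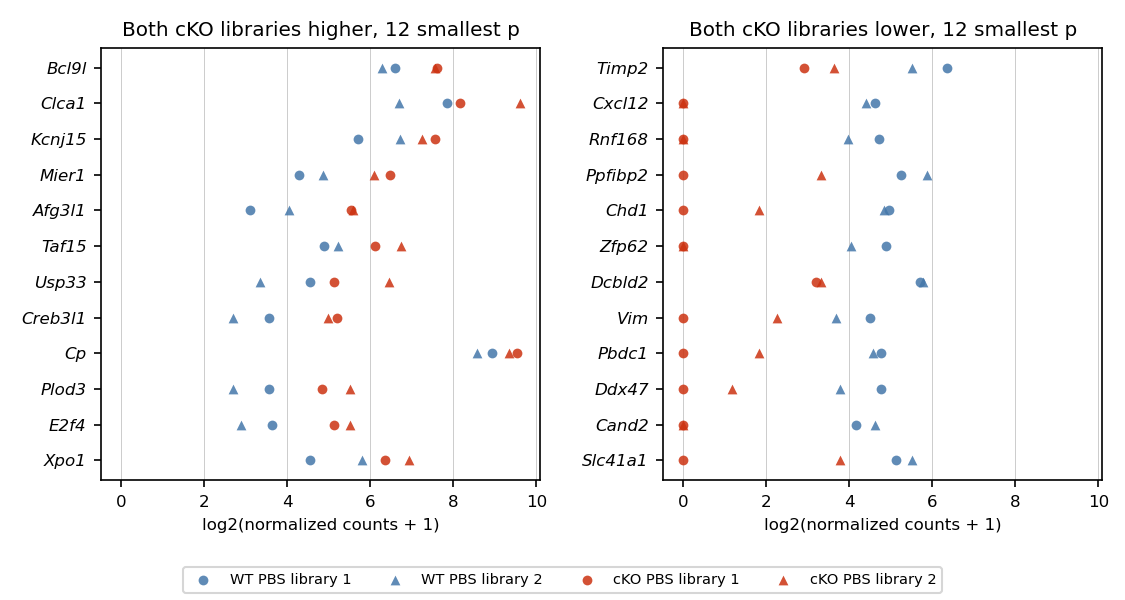
Values in each PBS library (x axis, log2 of normalized counts plus 1) of the 12 genes of smallest unadjusted p among those with both cKO libraries higher (left) and both lower (right). Circles are the first and triangles the second library, blue for WT PBS and red for cKO PBS. At left all libraries have reads, while at right most genes have 0 reads in at least 1 cKO library.

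Among genes lower in cKO, Timp2, an inhibitor of matrix metalloproteinases, had the smallest p of the whole table. It stood at 81.1 and 44.6 normalized counts in WT PBS and at 6.5 and 11.4 in cKO PBS, with reads in every library and no overlap. The log2 difference was -2.66 ± 0.47, with an unadjusted limma p of 3.8e-05 and an adjusted p of 0.287 (Benjamini-Hochberg). It passed at -2.30 without the first and at -3.03 without the second cKO PBS library. Dcbld2, a membrane receptor, was at 51.3 and 53.7 against 8.1 and 8.9 (-2.49 ± 0.63), both genotypes tight, and passed at -2.55 without the second cKO library.

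In most other genes of this order the cKO libraries were at or near 0 reads. Cxcl12, the chemokine that binds CXCR4, had 0 reads in both cKO libraries and 53 in both WT libraries together (23.7 and 20.01 normalized counts). Set against a floor of 3 reads in each cKO library it was at least 5.03-fold lower, with the spread between libraries left out. By the same floor Rnf168, a ubiquitin ligase of the DNA damage response, was at least 4.58-fold lower, Zfp62, a zinc finger protein, at least 5.04-fold, and Cand2, a regulator of cullin ligases, at least 4.66-fold. Vim, the intermediate filament vimentin, had 3 reads in cKO and 41 in WT, a ratio of normalized counts of 0.13 (95% counting interval 0.02 to 0.39). Chd1, a chromatin remodeller, had 2 and 69 reads, a ratio of 0.05 (0.01 to 0.19). Ppfibp2, Pbdc1, Ddx47 and Slc41a1 had 0 reads in the first cKO library and 1.3 to 12.7 normalized counts in the second. With either cKO library left out, Cxcl12, Rnf168 and Zfp62 had the same log2 difference (-4.51, -4.34 and -4.46). Both cKO libraries were at 0 reads, so the 2 fits repeat 1 result. Without the second cKO library, where the remaining library is the shallowest, Ppfibp2 stood at -5.55, Chd1 at -4.88 and Vim at -4.08. Pbdc1 was at -4.66, Ddx47 at -4.27, Cand2 at -4.39 and Slc41a1 at -5.31 in that fit.

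In 57 of the tested genes both cKO libraries had 0 reads, and in 9 both WT libraries. Taken singly, the cKO libraries had 0 reads in 517 and 258 tested genes and the WT libraries in 38 and 73. Both cKO libraries had fewer reads in all than both WT libraries, and the part of depth in these counts was not tested. The highest in WT were Chrac1, a chromatin assembly subunit, at 16.1 and 30.9 normalized counts and at least 5.41-fold lower in cKO, and Gtf2e2, a general transcription factor subunit, at least 5.08-fold lower. Both passed in the fit without the second cKO library. In the other direction Serping1, the C1 inhibitor, had 6.5 and 6.3 in cKO and 0 reads in both WT libraries, at least 2.56-fold higher. Igtp and Gbp2, interferon-induced GTPases, had reads in the second cKO library alone among the PBS libraries (30.5 and 11.4).

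Club cell genes lay mostly on one side. Of 24 tested members, 22 were higher and 2 lower in cKO, where 44.6% of all genes were higher, with a median log2 difference of 0.25. 0 passed, and in 7 both cKO libraries lay above both WT libraries (15.7% of all genes did). That share rises with level. Among the 174 genes that averaged 200 or more normalized counts, 48 lay above and 13 below, with a median of 0.10. At an unadjusted p under 0.05 stood 4 members, all higher (2.17% of all genes were). Those 4 were Scgb1a1 at 0.74 ± 0.24, Cyp2f2 at 0.58 ± 0.21, Scgb3a2 at 0.56 ± 0.25 and Cbr2 at 0.53 ± 0.19, the last at 1203 and 1252 normalized counts against 1890 and 1656. Other members ranged from -0.36 ± 0.34 for Gabrp, a GABA receptor subunit, to 0.78 ± 0.49 for Lypd2, and the abundant Cyp2s1 stood at 0.02 ± 0.24. The first cKO library was the higher one in most of the leading genes. Without it 15 members were higher and the median was 0.06, with quantile normalization 16 and 0.06. Without the second cKO library Scgb1a1 passed at 1.01.

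In whole reads, Scgb1a1 had 2823 and 2228 reads in WT PBS against 2590 and 2281 in cKO PBS, nearly the same number in libraries whose total reads differ, with up to 5.93 reads per base of its 476 bases of exon. Reads of both cKO over both WT libraries were 0.96 for Scgb1a1, 0.86 for Cyp2f2 and 0.84 for Cbr2, while the ratio of total reads was 0.60. Among the 15 genes with at least 0.5 reads per base in a PBS library, 15 had a log2 difference above 0. In 8 of them the genotypes did not overlap, and the median ratio was 0.70. For Lyz2, however, the log2 difference was 0.006 ± 0.32, which gives no direction, and its ratio was 0.58. In the 8 club cell genes of that density the median log2 difference was 0.57, and in the 8 under 0.1 reads per base it was 0.10, with 6 higher. Retnla counts among the dense 8 only through the second cKO library, at 0.52 reads per base. It had 0.25 in each WT library and 0.11 in the first cKO library, so its place there is no separate evidence. The part of read density in the club cell differences was not tested. These splits by density were chosen after seeing the data.

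**Figure D4:**
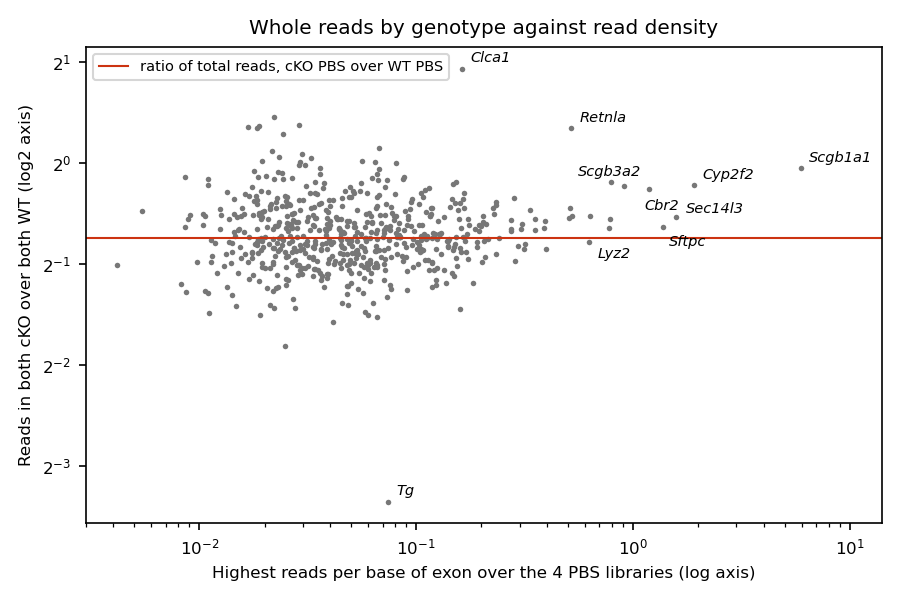
Reads in both cKO PBS over both WT PBS libraries (y axis, log2 axis) against the highest number of reads per base of exon in a PBS library (x axis, log axis) for the 609 genes that average 100 or more normalized counts in these libraries. The red line is the ratio of total reads, 0.60, around which most genes lie. At the right end Scgb1a1, Cyp2f2 and Cbr2 lie above it and Lyz2 lies just below.

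Mucous genes had a positive median that rested on single libraries. Of 10 tested goblet and mucous cell genes 8 were higher (44.6% of all genes were), and the median was 0.69. Of the 8, 2 had an unadjusted p under 0.05, Clca1 and Creb3l1 (2.17% of all genes were higher at that level). Without the second WT PBS library 4 were higher and 6 lower, with a median of -0.19. Muc5ac, the gel-forming mucin of goblet cells, stood at 26.8 and 1.8 normalized counts in WT PBS and at 9.8 and 50.8 in cKO PBS, overlapping widely. Fcgbp, an IgG-binding mucus protein, was at 55.1 and 88.2 against 129 and 123 (0.84 ± 0.46), and Agr2, a disulfide isomerase of mucous cells, at 13.0 and 7.3 against 6.5 and 0 (-1.97 ± 1.16).

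Chaperones of the endoplasmic reticulum were more often higher in cKO. This is the unfolded protein response, by which secretory cells adjust their folding capacity. Of 20 tested members 13 were higher and 7 lower, where 44.6% of all genes were higher, with a median of 0.30. In 9 both cKO libraries lay above both WT libraries (15.7% of all genes did). Of all genes averaging 100 to 200 normalized counts 86 of 431 did, and of those averaging 200 or more 48 of 174. Herpud1, a membrane protein of the degradation machinery there, stood at 100 and 92.8 normalized counts in WT PBS and at 184 and 157 in cKO PBS (0.81 ± 0.29). Calr, calreticulin, was at 253 and 206 against 335 and 334 (0.55 ± 0.23), and Hspa5, the central chaperone BiP, at 348 and 251 against 410 and 417 (0.48 ± 0.23). Pdia6, a disulfide isomerase, had 0.59 ± 0.28, and Manf, a secreted stress protein, 0.76 ± 0.41. Dnajb9, a cochaperone of BiP, was on the other side at 16.8 and 17.3 against 6.5 and 0 (-2.72 ± 1.02), and passed at -4.17 without the first cKO library. The median ranged from 0.20 to 0.41 over the 23 alternatives of processing, the leave-one-out fits among them, and 0 members passed with all libraries.

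Matrix genes were more often lower in cKO. Of 25 tested members 18 were lower and 7 higher, with a median of -0.56, where 4164 of all 7512 genes were lower. At an unadjusted p under 0.05 stood 6 lower and 0 higher members, against 4.79% and 2.17% of all genes. In 8 both cKO libraries lay below both WT libraries (19.1% of all genes did). Besides Timp2 and Vim these included Col4a1, a basement membrane collagen, at 61.2 and 45.5 normalized counts against 9.8 and 31.7 (-1.52 ± 0.50), Sparc at 14.5 and 5.5 against 0 and 5.1 (-2.02 ± 0.83), and Adam17, a sheddase, at 33.7 and 36.4 against 14.6 and 7.6 (-1.63 ± 0.66). Timp3, a metalloproteinase inhibitor, was at 54.3 and 115 against 0 and 61.0, a difference made by the first cKO library. Sparc and Timp3 passed without the second cKO library (-3.32 and -6.33). With quantile normalization 13 members were lower and 12 higher, with a median of -0.23. Several of these are genes of fibroblasts, a list of which had 8 of 12 members lower, such as Col1a1 at -1.26 ± 0.52. That list's share of reads was 0.382% and 0.439% in WT PBS against 0.496% and 0.439% in cKO PBS. Gsn, which ranked 5 by normalized counts, made up most of it. It had 1659 of 1834 and 1636 of 1805 reads in WT PBS, and 1104 of 1154 and 1194 of 1309 in cKO PBS. The share thus follows Gsn and does not measure fibroblast RNA, whose part in the result was not tested.

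Immediate early genes, which are switched on within minutes by handling, injury or growth factors, also leaned to lower values. Of 21 tested, 17 were lower and 4 higher in cKO, with a median of -0.33, where 4164 of all 7512 genes were lower. In 5 of the 21 both cKO libraries lay below both WT libraries, a share near that of all genes (19.1%). Ccn1, a matricellular protein, and Ier3, a survival gene, had 0 reads in both cKO libraries and were at least 3.13-fold and 4.22-fold lower. Atf3, a stress factor, stood at 47.5 and 41.8 normalized counts against 27.7 and 13.97 (-1.14 ± 0.72), and Egr1 at 313 and 240 against 177 and 268 (-0.33 ± 0.28). Fos, the most abundant member, overlapped between genotypes at 516 and 372 against 335 and 441. Without the first WT or the first cKO library 12 were lower and 9 higher.

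Interferon-stimulated genes had 12 of 17 members higher and a median of 0.56, where 44.6% of all genes were higher and 4164 of all 7512 lower. Most were near the floor, and Iigp1, a GTPase, with the smallest p, was at 0 and 12.7 normalized counts in WT PBS against 9.8 and 57.1 in cKO PBS (2.75 ± 1.05), which overlap. Without the second cKO library 8 were higher and 9 lower, with a median of 0. Genes of MHC class I, which presents peptides to T cells, had 10 of 13 members lower with a median of -0.28, and H2-K1, a classical member, stood at 188 and 323 against 154 and 246. Members of that family have near-identical copies, between which reads may be split with error. NF-kB genes had 9 of 13 lower, with a median of -0.53, or -0.28 with the gene at 0 reads in both cKO libraries taken at its bound. Sod2, the mitochondrial superoxide dismutase, was the nearest at 99.5 and 133 against 69.9 and 73.7 (-0.67 ± 0.33).

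**Figure D5:**
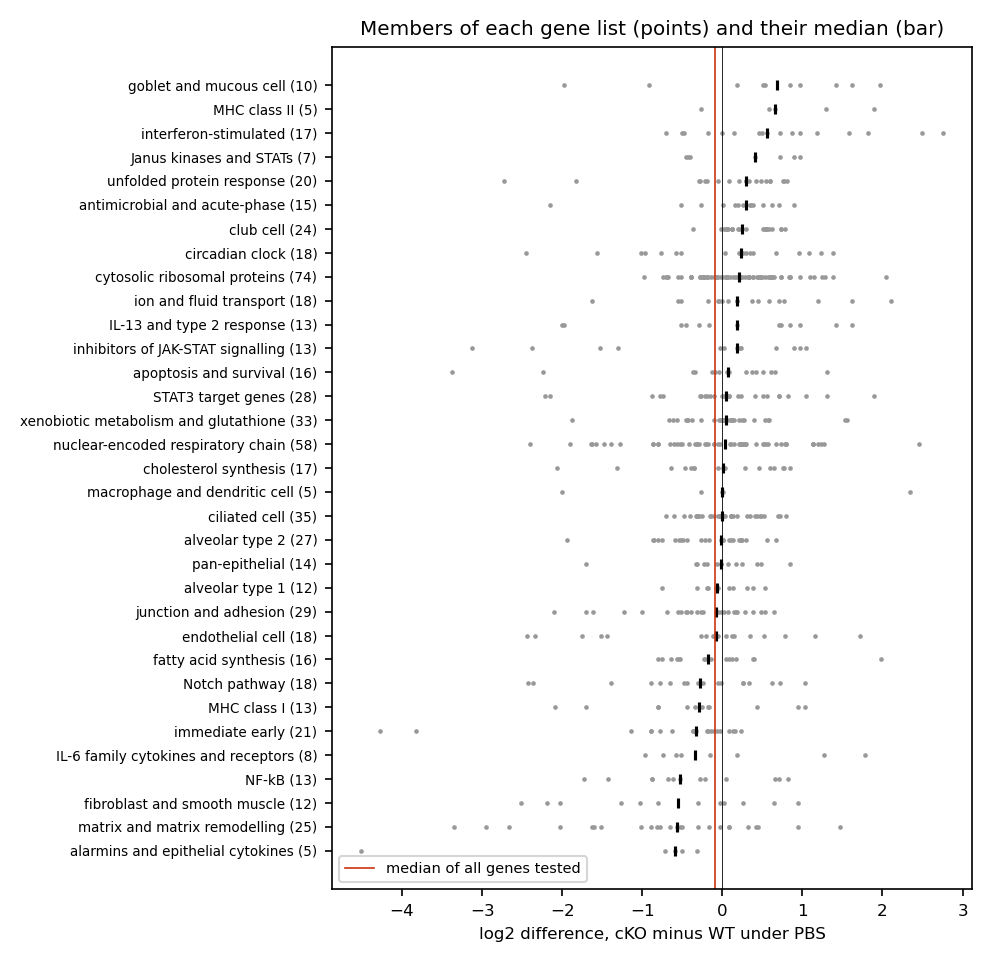
Log2 difference, cKO minus WT under PBS (x axis), of the tested members of each gene list with at least 5 of them (grey points) with the list's median (black bar) and the number of members in brackets; the red line is the median of all genes tested, -0.09. Lists are sorted by their median, and every list plotted spans both sides of 0 except alarmins and epithelial cytokines, with 5 members.

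The medians of the ciliated and alveolar type 2 lists were near 0, at -0.004 and -0.01. Over the alternatives of processing they ranged from -0.13 to 0.11 and from -0.47 to 0.12. Of 35 ciliated cell genes 17 were higher and 18 lower, with 0 at an unadjusted p under 0.05. Of 27 alveolar type 2 genes 13 were higher and 14 lower, with 3 lower at that level (4.79% of all genes were). All 4 with 0.5 or more reads per base had a difference above 0, though that of Lyz2 was only 0.006 ± 0.32. Of the 23 under 0.5, 14 were lower and 9 higher, with a median of -0.21, a split chosen after seeing the data. Scd1, the fatty acid desaturase that feeds surfactant lipids, stood at 599 and 670 normalized counts in WT PBS and at 293 and 481 in cKO PBS (-0.75 ± 0.25), without overlap, and passed at -1.11 without the second cKO library. Lpcat1, which remodels surfactant phosphatidylcholine, was at 146 and 142 against 79.7 and 85.1 (-0.80 ± 0.36), and Lamp3, of lamellar bodies, at 100 and 183 against 50.4 and 109 (-0.86 ± 0.39).

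In the Notch pathway, which sets secretory against ciliated fate, 12 of 18 members were lower, where 4164 of all 7512 genes were. Hes1, its main effector, stood at 140 and 115 normalized counts in WT PBS and at 76.5 and 61.0 in cKO PBS (-0.89 ± 0.35), and Lfng, which modifies the receptor, at 49.0 and 35.5 against 26.03 and 8.9 (-1.38 ± 0.62). In both genes both cKO PBS libraries lay below both WT PBS libraries, as in 4 of the 18 members, a share near that of all genes (19.1%). Of 18 clock genes 11 were higher, among them Bhlhe40 at 1.23 ± 0.55, while Clock was at 39.0 and 29.1 against 13.0 and 8.9 (-1.56 ± 0.58). Ribosomal protein genes had 47 of 74 members higher, with a median of 0.21, where 44.6% of all genes were higher. Nuclear-encoded respiratory chain genes had 29 higher and 29 lower. Of these 58, 4 were lower at an unadjusted p under 0.05, a share near that of all genes (4.79%).

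Some genes were present in 1 cKO library and nearly absent from the other. Among genes averaging 50 or more in the PBS libraries, Tg, which encodes thyroglobulin of the thyroid, had the widest difference, at 506 and 42.7 normalized counts in WT PBS against 0 and 87.6 in cKO PBS. Iyd, another thyroid gene, was at 39.0 and 20.3 in the first WT and the second cKO library and at 0 in the other PBS libraries (looked up after seeing Tg). Micall1, Luc7l2, St3gal2 and Rock2 were also high in the second cKO library, and Bzw1, a translation factor, was at 125 in the first and 6.3 in the second. The WT libraries lay together for Bzw1, at 74.2 and 60.9. Without the second cKO library Tg (-7.22), Micall1 (-3.36), Luc7l2 (-3.08) and Rock2 (-2.80) passed, and without the first Bzw1 did (-3.22).

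Leaving out a cKO library gave calls that the other did not share. Without the first cKO PBS library 53 genes passed, 2 higher (0.0266%) and 51 lower (0.679%), and 37 of the lower ones had 0 reads in the remaining library. Without the second, 315 passed, 12 higher (0.160%) and 303 lower (4.03%), 203 of them with 0 reads in the remaining library. Only 5 genes passed in both fits: Cxcl12, Rnf168, Timp2, Zfp62 and a predicted gene. All of them but Timp2 had the same log2 difference in both fits, which for them repeat 1 result. In these fits the lone library is assumed to vary like the other groups. Without either WT PBS library 0 passed.

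The measured genotype differences without and with allergen were nearly uncorrelated across genes. The PBS and HDM contrasts share no library, and across the 7512 genes their log2 differences had r = 0.05 and rho = 0.05, given as a description. With 2 libraries per group, and cKO PBS libraries that correlated at 0.56, this value cannot show whether the genotype effects themselves are related. Under HDM 43 genes passed (0.572%). The difference between the contrasts passed for 2 genes, Scd1 and Hc, complement C5 (0.0266%). In 134 genes (1.78%) all 4 cKO libraries lay above all 4 WT libraries, and in 149 (1.98%) below. Lrg1, a STAT3-responsive glycoprotein, was at 9.2 and 9.1 normalized counts in WT PBS, 0 and 3.8 in cKO PBS, 66.5 and 81.2 in WT HDM and 2.2 and 3.3 in cKO HDM. Herpud1 was the opposite, with 157 to 211 in the 4 cKO and 74.8 to 100 in the 4 WT libraries. Nr1d2, a clock repressor, was higher by 1.39 under PBS and 2.39 under HDM. Of the ciliated cell list 6 of 35 genes had all cKO libraries above, and of the alveolar type 2 list 3 of 27 below: Scd1, Lpcat1 and Etv5. Of the STAT3 target list 2 of 28 lay below, Lrg1 and Cebpd, and 0 above. This selection was made after seeing the data, and carries no test.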

How the data were processed

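RNA-seq was available for 8 libraries in 4 groups of 2, grouped by genotype and treatment as labelled. The deposited values are a signal, read counts per gene after normalization by the authors; per the submitters' processing notes, HOMER, DESeq2 and build mm10 were used. Which aligner and annotation were used, and how strand and duplicates were handled, is not given in these sources, so reads of overlapping or antisense genes cannot be told apart. Of the non-zero values 100% were whole multiples of 1 read within 0.01 reads, which gave whole reads of 232556 to 593200 per library.

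Genes with a mean of at least 10 were tested on log2(value + 1) with limma 3.58.1 in R 4.3.3, with 1 mean per group over the 8 libraries, a variance trend and two-sided p-values adjusted by Benjamini-Hochberg (threshold 0.05). Fold changes are on that scale and understate low genes. Errors after ± are standard errors. edgeR 4.0.16 and DESeq2 1.42.0 were run on the whole reads. The fit was tested on simulated data. Exon lengths came from GENCODE M21 (99.2% of tested genes). The genes named were the 12 of smallest p in each direction without overlap, the 20 most abundant, 2 members of each list by p and 2 by level, genes at 0 reads in a genotype, the 6 most divergent between cKO libraries each way, and a set followed throughout; predicted genes were left out. Other list members were named after their values were seen. Some genes that this rule names are not reported here. The comparison, its 43 gene lists and this rule were chosen with earlier results of these data known, so lists carry counts and no test.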

Additional observations from a re-analysis of the deposited data

Results flagged for a closer look

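In 2 genes the genotype difference without allergen differed from that with allergen by an interaction test over all 7512 genes. For Scd1, the fatty acid desaturase, cKO minus WT on the log2 scale was -0.75 under PBS and -3.46 under HDM, 2.71 apart (limma interaction, Benjamini-Hochberg adjusted p = 0.008). For Hc, complement C5, it was 0.08 under PBS and -2.68 under HDM, 2.77 apart (limma adjusted p = 0.039).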

How the results depend on the processing

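The count of genes passing stayed at 0 under all alternatives except leaving out a library, where it ranged from 0 to 315. It was 53 without the first and 315 without the second cKO PBS library. The count at an unadjusted p under 0.05, 523, was 917 with no filter on low values, 108 with a minimum mean of 50, 318 with only the 4 PBS libraries, and 218 to 1268 when a library was left out. Of these genes 31.2% were higher in cKO, against 46.1% with quantile normalization.

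The replicate numbers showed no visible pairing: deviations of same-numbered WT PBS and cKO PBS libraries correlated at 0.014 across genes. The labels do not say what the numbers stand for, and this value cannot settle whether same-numbered libraries were handled together. With the number as a replicate block 0 genes passed and 530 had an unadjusted p under 0.05. Scaling by genes under 0.1 reads per base, chosen after seeing the data, gave 0 and 524.

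Of 179 named genes, 63 changed sign under at least 1 of 23 alternatives, 18 of them outside the leave-outs, and 32 passed under at least 1, each a fit without a cKO PBS library. Of 759 list medians, 707 moved by less than 1 SD. Depth limits the lower values: with 232556 reads in the first cKO PBS library, a gene at 0 reads allows up to 4.88 normalized counts.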

Other observations

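Reads of Xist and of Y-linked genes were found in each library, some of them very few. Xist, transcribed from the inactive X chromosome, had 24 to 42 reads in the 4 PBS libraries, and the Y-linked genes Ddx3y, Eif2s3y, Kdm5d and Uty together had 3 to 18. In the first cKO PBS library the Y-linked reads were 3, all of Kdm5d, which is as many as a count of 0 allows. The labels give neither sex nor pooling. These genes were looked at after seeing the data.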
